A study of Mus musculus with 20 samples.

Results

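The results concern 1 question: whether a fast changed liver gene expression differently in mice with and without hepatic Mcl1. It was asked with the interaction contrast, the fasted minus fed difference in Mcl1(L-/-) mice minus the same difference in WT mice. All 20 arrays of the series and all 22206 probe sets entered it, and no measured value chose them. Each array held total liver RNA of 1 mouse, and the labels call the 5 mice of each of the 4 groups biological replicates. The groups were WT mice with food, WT mice fasted for 48 h, Mcl1(L-/-) mice with food and Mcl1(L-/-) mice fasted for 48 h. Mcl1(L-/-), called Mcl1KO from here on, stands for mice with a floxed Mcl1 gene that received AAV-LP1-Cre, an adeno-associated virus that drives Cre recombinase from the liver promoter LP1. Fasted mice sat alone in cages with a wire floor, and water was always available. The sources used here do not give what WT mice received, how fed mice were caged, or the strain, sex and age of the mice. A response to virus, to Cre or to the caging can therefore not be told apart from one to the deletion or to the lack of food.

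MCL-1 is a member of the BCL2 family that restrains apoptosis at the mitochondrial outer membrane, and forms of it inside mitochondria have been tied to respiration and fatty acid oxidation. In a fast the liver stops making fatty acids and sterols, takes up fatty acids from adipose tissue, oxidises them under the control of the nuclear receptor PPARα, stores the excess in lipid droplets and exports glucose and ketone bodies. Sterol synthesis is set by the transcription factor SREBP-2, the product of Srebf2, which is held in the endoplasmic reticulum when sterols are plentiful.

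The Mcl1 probe set read 7.16 to 7.60 (log2 signal) over the 10 WT livers and 5.83 to 6.50 over the 10 Mcl1KO livers, with no overlap. Its own interaction was 0.20 (SE 0.16, adjusted p = 0.706). All 16 hepatocyte markers lay above the array median in every group. The 5 fasted Mcl1KO livers were not alike. Replicate 3 lay at a root mean square distance of 0.273 from the mean fasted WT profile, nearer than to its own group (0.316), while the other 4 lay at 0.362 to 0.425. Without it the number of interaction calls rose from 30 to 331. Without replicate 4, the next nearest at 0.362, it was 62, and each time all 30 were among the calls. These arrays were picked by their nearness to WT. Neither the larger counts nor a lower p-value without them, here or below, is therefore support for a difference. Removing 1 of the other 18 arrays gave 9 to 33 calls, with 9 without fasted WT replicate 2. The fit gives all 4 groups 1 spread. When each group kept its own spread, limma's moderation was dropped and 0 probe sets passed, with 2157 at an unadjusted p under 0.05 against 2477 in the main limma fit. An ordinary linear model, which keeps the shared spread but drops the moderation, called 3, of which 2 were among the 30. The calls below therefore rest on limma's moderation together with the shared spread.

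**Figure D1:**
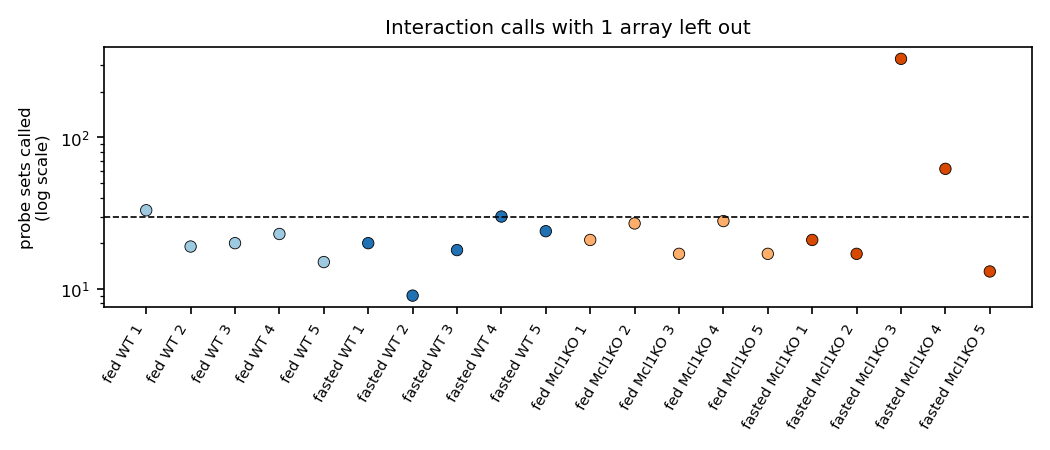
Number of probe sets called for the interaction (log scale) when the array named on the x axis was left out, coloured by group; the dashed line is the 30 calls with all arrays. Leaving out fasted Mcl1KO replicate 3 gave 331 calls and replicate 4 gave 62, and the other 18 arrays gave 9 to 33.

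Few probe sets passed the threshold for the interaction, while 11.2% had an unadjusted p under 0.05 in the same fit. The number that passed does not measure how many transcripts fasting changed differently. Limma called 30 of 22206 probe sets at a Benjamini-Hochberg adjusted p under 0.05 (0.135%), 18 with a higher (0.0811%) and 12 with a lower change in Mcl1KO (0.054%). Quantile normalisation of the deposited values gave 17 higher and 18 lower, and centring each array on its median 27 higher and 11 lower. For comparison, 6.79% of probe sets were called for fasting in WT and 14.4% for fasting in Mcl1KO, 0.036% for genotype in fed and 4.99% for genotype in fasted mice. These contrasts share arrays with the interaction. The median interaction over all probe sets was -0.01 (log2), and 48.2% were above 0. Ddx28 was the last probe set inside the threshold (adjusted p = 0.0468) and Tiprl the nearest outside it (0.05001). The 30 had 3 shapes. In 19 the estimated fasting changes of the genotypes had opposite signs, as in the endoplasmic reticulum chaperone gene Hyou1 and the glycogen synthase gene Gys2. Of these, only Mrc1 was called for fasting in both genotypes. In the others the fasting change passed in a single genotype, so a reversal was not shown. In 8 they had the same sign and were larger in Mcl1KO, as in Hsd3b2, Rab30, Cidec, Fdft1, Nlrp12, Apol9a, Tbc1d15 and Ddx28. In 3, Ctse, Gm4788 and a mitochondrial probe set without a symbol, the fasted minus fed difference was larger in WT.

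**Figure D2:**
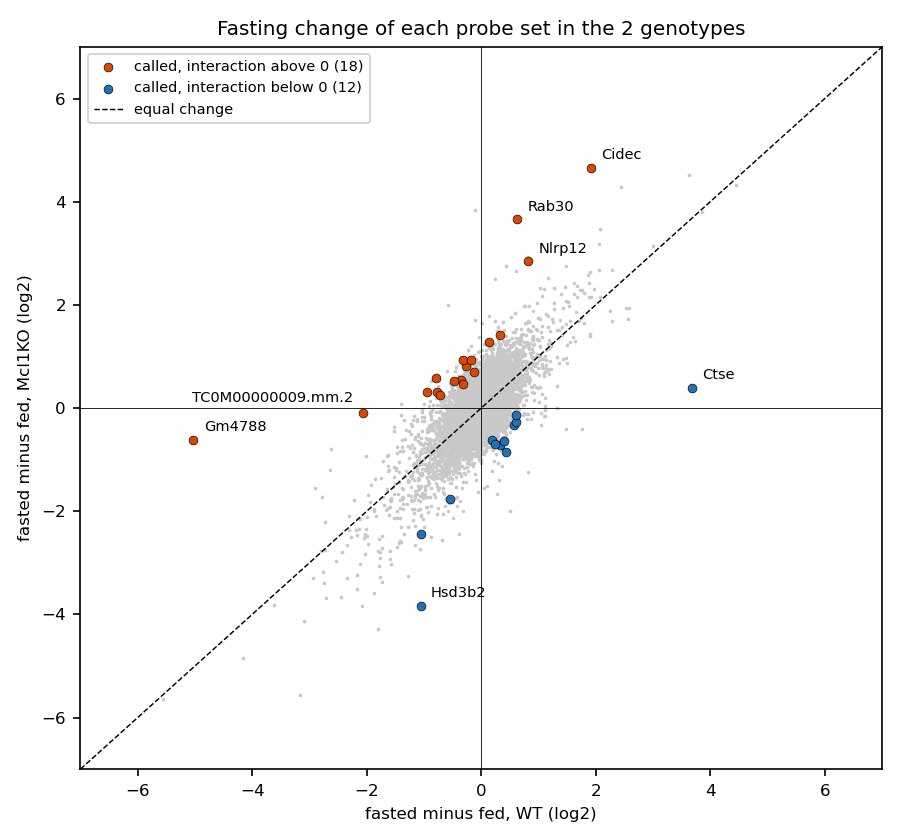
Fasted minus fed difference (log2) of each of the 22206 probe sets in WT (x axis) and in Mcl1KO (y axis). The 30 called probe sets are coloured by the sign of the interaction; points on the dashed line changed equally. Cidec, Rab30 and Nlrp12 lie above the line and Hsd3b2 below it at the lower left. Gm4788, Ctse and the mitochondrial probe set differed between fasted and fed livers mainly in WT.

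Separation of single groups was uneven. The 30 were picked by a contrast of these same values, which favours groups that stand apart. The shares over all probe sets are given for scale and are not a test of separation. The 5 fasted Mcl1KO livers lay above all 15 others in 9 of the 30 (Nlrp12, Rab30, Tbc1d15, Cidec, Tor3a, Timm17a, Wtap, Csnk1e and Ddx28) and below them in 3 (Hsd3b2, Fdft1 and Apol9a). Over all probe sets, fasted Mcl1KO livers lay above all others in 1.19% and below in 0.347%. The 5 fasted WT livers lay beyond all others in 6, above in Alg12 and Ctse and below in Gm4788, Vsig4, Fcna and the mitochondrial probe set, against 0.0946% above and 0.149% below over all probe sets. In Hsd3b2 and Apol9a the fed Mcl1KO livers also lay above all 15 others, as they did in 0.0991% of all probe sets. In the remaining 12 no group lay beyond all others.

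**Figure D3:**
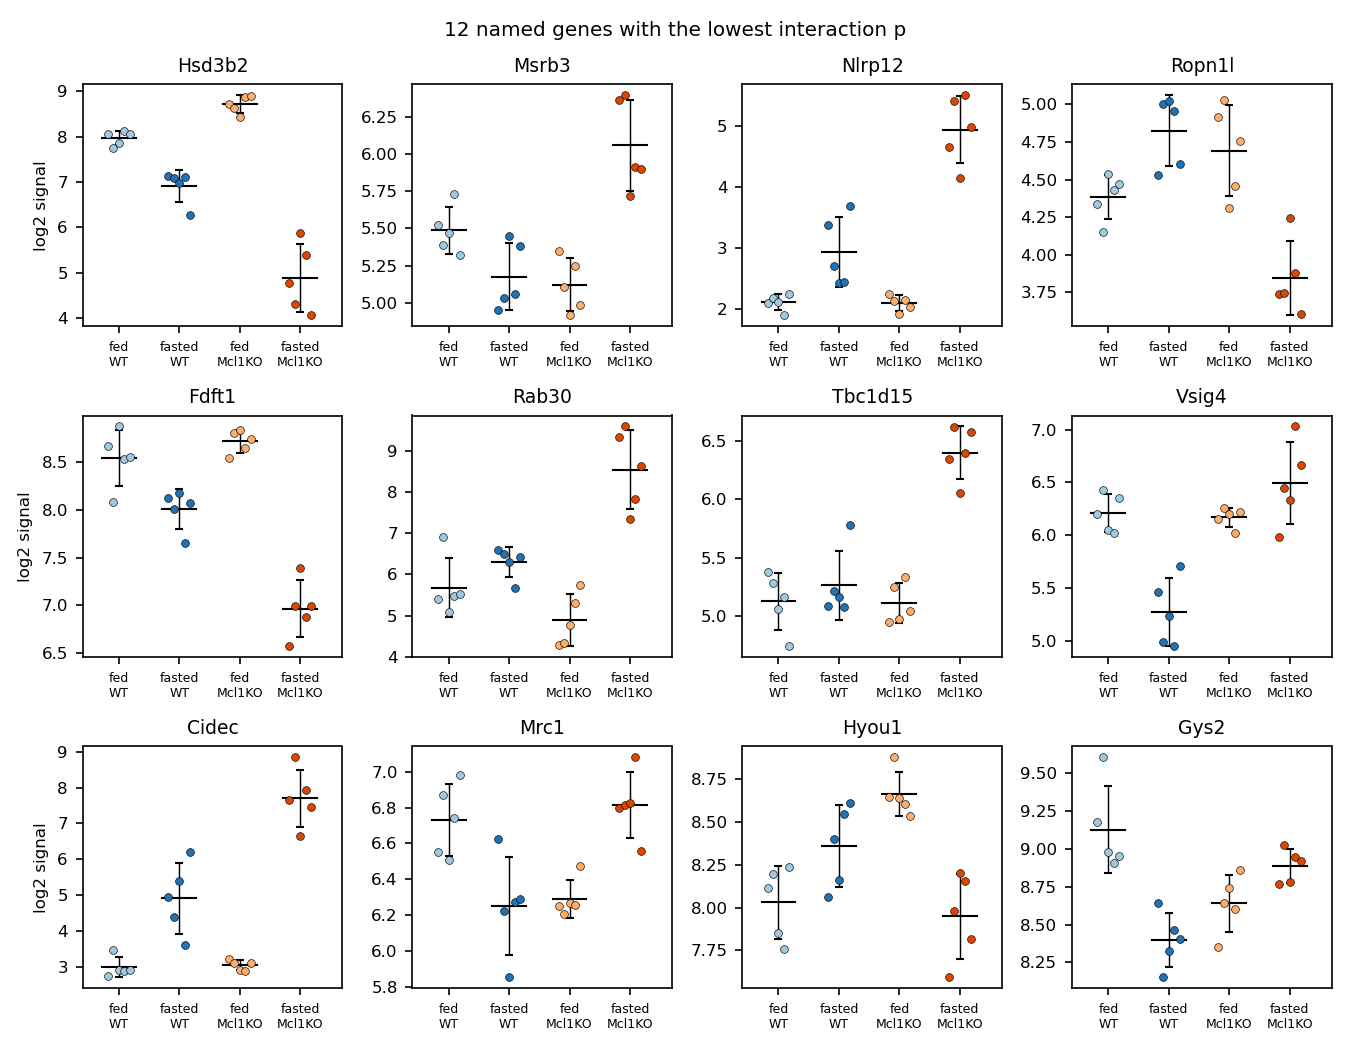
Log2 signal of each liver for the 12 named genes with the lowest interaction p (panel title), by group on the x axis; points are single mice, bars the mean and whiskers 1 SD (n = 5). The y axes differ between panels and do not start at 0. Fasted Mcl1KO livers lie apart from the other 15 in Hsd3b2, Nlrp12, Fdft1, Rab30, Tbc1d15 and Cidec, and fasted WT livers in Vsig4.

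Enzymes of cholesterol synthesis fell with fasting in both genotypes and had lower values of the interaction. Of 16 measured enzymes, 12 were called lower on fasting in WT (3.68% of all probe sets) and 15 in Mcl1KO (6.25%), with median changes of -1.07 and -1.79 (log2). In the interaction 15 of 16 were below 0, with a median of -0.94 against -0.01 over all probe sets. Fdft1, which encodes squalene synthase, the enzyme at the branch into sterols, was the 1 enzyme called. Another 11 had an unadjusted p under 0.05 in the same direction, so that 12 of 16 stood against 5.08% of all probe sets, and 11 to 14 did when 1 array was left out. The log2 signals of Fdft1 were 8.68, 8.08, 8.88, 8.53 and 8.56 in fed WT and 8.12, 8.01, 8.18, 7.65 and 8.07 in fasted WT livers. In Mcl1KO livers they were 8.55, 8.81, 8.84, 8.65 and 8.75 with food and 6.57, 6.99, 7.39, 6.88 and 6.99 without. It fell 1.45-fold in WT (adjusted p = 0.0246) and 3.38-fold in Mcl1KO (adjusted p = 1.12e-08), an interaction of -1.22 (SE 0.21, limma adjusted p = 0.0163). All 5 fasted Mcl1KO values lay below the other 15, and the call was kept in 20 of 20 fits with 1 array left out.

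Neighbouring steps of the pathway are named here after their values were seen. Sqle, which encodes the squalene epoxidase that follows Fdft1, had an interaction of -2.49 (SE 0.52, limma adjusted p = 0.0502), and its changes were -1.80 in WT and -4.29 in Mcl1KO. Without fasted Mcl1KO replicate 3 it was -2.77 (adjusted p = 0.00636). Idi1, the isopentenyl diphosphate isomerase gene, had -1.63 (SE 0.42, adjusted p = 0.098), and Hmgcs1, the cytosolic synthase of hydroxymethylglutaryl-CoA, -1.51 (SE 0.41, adjusted p = 0.124). None of these passed with all arrays. Ebp, a sterol isomerase, had 0.0 (SE 0.19, adjusted p = 0.998), and Hsd17b7 -0.22 (SE 0.34, adjusted p = 0.872). Among 13 genes of sterol sensing, uptake and efflux 0 were called. An unadjusted p under 0.05 was reached by 3, all lower, against 5.08% of all probe sets. Srebf2 ranged over 6.82 to 7.63 in fed WT, 7.10 to 7.88 in fasted WT, 7.67 to 7.88 in fed Mcl1KO and 6.82 to 7.23 in fasted Mcl1KO livers. Srebf2 fell 1.75-fold in Mcl1KO (adjusted p = 0.000555), while its WT change was 0.20 (adjusted p = 0.584). Its interaction of -1.01 (SE 0.22, adjusted p = 0.0597) missed the threshold, and it passed in 3 of 20 fits with 1 array left out. Insig1, whose product retains SREBP-2 in the endoplasmic reticulum, had -1.18 (SE 0.33, adjusted p = 0.136).

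Genes of fatty acid synthesis fell on fasting with a median interaction near 0. Of 17 measured genes of de novo lipogenesis, 13 were called lower on fasting in WT (3.68% of all probe sets) and 12 in Mcl1KO (6.25%), with median changes of -1.20 and -1.10. Their median interaction was -0.03, 0 were called, and 3 had an unadjusted p under 0.05, all higher, against 6.07% of all probe sets. The sign of that median turned under 10 alternatives. Elovl5, a fatty acid elongase, had 1.01 (SE 0.26, adjusted p = 0.102) and Me1, the malic enzyme gene that supplies NADPH, 0.97 (SE 0.28, adjusted p = 0.143).

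Among 22 genes of lipid droplets and lipases, 13 were above 0 and 9 below, and Cidec, whose product fuses lipid droplets and enlarges them, was the 1 called (0.0811% of all probe sets). Signals of Cidec in fed WT livers were 2.75, 3.47, 2.93, 2.89 and 2.92 and in fasted WT livers 4.94, 4.40, 5.39, 3.61 and 6.19 (log2). Fed Mcl1KO livers gave 3.22, 3.11, 2.90, 2.89 and 3.10 and fasted ones 7.65, 8.84, 6.64, 7.93 and 7.46. It rose 3.78-fold in WT (adjusted p = 0.000883) and 25.3-fold in Mcl1KO (adjusted p = 2.47e-09), an interaction of 2.74 (SE 0.50, limma adjusted p = 0.022). The fasted Mcl1KO values did not overlap the rest, and the fasted WT values, all above the fed ones, spread over more than 2 log2 units. The fed values lay near or below the array medians of 3.35 to 3.47, so the folds rest on a dim baseline. The call was kept in 19 of 20 fits and ended without fasted WT replicate 2 (2.62, adjusted p = 0.0501). Trend and robust moderation, set together, also ended it (adjusted p = 0.0585), as they did for Rab30.

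Chosen after their values were seen, 3 other members of that list are given. Pnpla2, the main triglyceride lipase of hepatocytes, had 1.05 (SE 0.22, adjusted p = 0.0543), with changes of 0.98 in WT and 2.03 in Mcl1KO. Fabp4, a fatty acid binding protein best known from adipocytes, had 2.04 (SE 0.54, adjusted p = 0.109). Of 5 adipocyte markers, all below the array median in every group, 0 had an unadjusted p under 0.05. The cell source of the Fabp4 signal was not tested. Plin2, a coat protein of droplets, had 0.95 (SE 0.29, adjusted p = 0.185). In all, 5 of the 22 had an unadjusted p under 0.05, all higher, against 6.07% of all probe sets. With 1 array left out, 5 to 8 did. The list's median interaction was 0.12.

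Of 23 PPARα targets, 9 were called higher on fasting in WT (3.1% of all probe sets) and 17 in Mcl1KO (8.2%), with median changes of 0.50 and 1.22. Their median interaction was 0.72, and 19 of 23 were above 0. None of the 23 was called. An unadjusted p under 0.05 was reached by 12 in the higher direction, against 6.07% of all probe sets, and by 1 in the lower. The 12 became 8 without fed WT replicate 2. Acot1 ranged over 5.02 to 6.46 in fed WT, 5.87 to 7.66 in fasted WT, 3.77 to 5.81 in fed Mcl1KO and 7.73 to 8.81 in fasted Mcl1KO livers. Acot1, a cytosolic thioesterase, had an interaction of 2.14 (SE 0.51, adjusted p = 0.0828), and Pdk4, the kinase that shuts pyruvate dehydrogenase, 2.12 (SE 0.57, adjusted p = 0.119). Without fasted Mcl1KO replicate 3, which was picked by its nearness to WT, these were 2.24 (adjusted p = 0.0321) and 2.45 (adjusted p = 0.0209). Cpt1a, which encodes the carnitine palmitoyltransferase at the entry to mitochondrial oxidation and is given after its value was seen, had 0.05 (SE 0.15, adjusted p = 0.951), with changes of 0.90 and 0.95. Of 16 genes of mitochondrial beta-oxidation 0 were called and 4 had an unadjusted p under 0.05, all higher, with a median of 0.21. Ketogenesis, with 4 genes, had 0 called.

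Hsd3b2, a hydroxysteroid dehydrogenase gene on chromosome 3, the chromosome of Mcl1, had the lowest interaction p of any named gene. With food, WT livers read 8.05, 7.75, 7.86, 8.13 and 8.06 (log2) for Hsd3b2 and Mcl1KO livers 8.72, 8.62, 8.44, 8.88 and 8.90. After the fast, WT livers read 7.12, 7.09, 6.97, 7.10 and 6.28 and Mcl1KO livers 4.78, 4.32, 5.86, 5.39 and 4.06. The fall was 2.08-fold in WT against 14.2-fold in Mcl1KO, an interaction of -2.77 (SE 0.34, limma adjusted p = 0.000329), called in 20 of 20 fits with 1 array left out. Fed Mcl1KO livers were above and fasted Mcl1KO livers below every WT liver. The paralogues of this family are similar in sequence, and the sources used here do not place the probes, so signals may be shared. Hsd3b3, named after its value was seen, had an interaction of -1.61 (SE 0.33, adjusted p = 0.05001), just outside the threshold. Hsd3b5, with -5.56 in WT and -5.64 in Mcl1KO, had -0.08 (SE 0.25, adjusted p = 0.950). Among 18 sex-biased and growth hormone-dependent liver genes Hsd3b2 was the 1 called. At an unadjusted p under 0.05, 3 others were higher and 1 other lower, against 6.07% and 5.08% of all probe sets.

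Chaperones of the endoplasmic reticulum had lower interactions, led by Hyou1, a large chaperone that helps BiP fold secreted proteins. Hyou1 measured 8.11, 8.19, 7.85, 7.76 and 8.24 in fed WT livers and 8.06, 8.40, 8.16, 8.55 and 8.61 in fasted WT livers. It measured 8.64, 8.88, 8.64, 8.60 and 8.54 in fed and 7.59, 7.98, 8.20, 8.15 and 7.82 in fasted Mcl1KO livers (log2). Its change was 0.33 in WT (adjusted p = 0.181) and it fell 1.64-fold in Mcl1KO (adjusted p = 0.000492), an interaction of -1.04 (SE 0.19, limma adjusted p = 0.022). Fed Mcl1KO livers were all above fasted Mcl1KO livers, while both WT groups overlapped. The call was kept in 18 of 20 fits and ended without fasted WT replicate 2 (adjusted p = 0.0501) or fasted Mcl1KO replicate 5 (0.0561). Of the 26 measured genes of folding in this compartment, 22 were below 0, 1 was called, and 7 had an unadjusted p under 0.05 in the lower direction, against 5.08% of all probe sets. Another 1 had it in the higher direction. The median was -0.19. The changes differed between members. Fasting raised 2 and lowered 3 in WT (3.1% and 3.68% of all probe sets) and lowered 9 in Mcl1KO (6.25%).

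Alg12, which encodes a mannosyltransferase that builds the lipid-linked precursor of N-glycans in the same compartment, also had an interaction below 0. The log2 signals of Alg12 were 4.49, 4.04, 4.47, 4.39 and 4.16 in fed WT and 4.94, 4.90, 4.87, 4.99 and 4.90 in fasted WT livers. In Mcl1KO livers they were 4.39, 4.69, 4.34, 4.54 and 4.64 with food and 4.37, 4.54, 4.37, 4.25 and 4.38 without. It rose 1.53-fold in WT (adjusted p = 0.000347), and its change in Mcl1KO was -0.14 (adjusted p = 0.486). The interaction was -0.75 (SE 0.14, limma adjusted p = 0.0357). The fasted WT livers lay above the other 15 in a narrow band. The call was kept in 8 of 20 fits with 1 array left out, with an adjusted p of up to 0.0732.

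Promoter windows of RefSeq (GRCm38.p6, 250 bases before to 50 after the start) were found for 21 of the 28 called genes with a symbol, and were searched on both strands. The ER stress response element, written as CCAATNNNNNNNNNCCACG, is shown because it was in the Alg12 window. It was also found for 10 of the 22 folding genes that had a window, and in 39 of all 32851 windows (0.119%). The first count is of genes and the second of windows, so these shares differ in unit. In the stretch below, from chr15:88819480-88819568 on the minus strand and upstream of Alg12, capitals mark the element.
Alg12: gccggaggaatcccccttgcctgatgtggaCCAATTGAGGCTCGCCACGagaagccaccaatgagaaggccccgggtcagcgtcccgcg
Creld2, a folding gene of the list that is read in the opposite direction, shares 173 bases of its window with Alg12, and the element lies in both. Creld2 had an interaction of -0.66 (SE 0.33, adjusted p = 0.457), with 0.58 in WT and -0.09 in Mcl1KO. The 10 folding genes with the element had interactions from -0.75 (Ero1b) to -0.06 (Dnajc3), with Hspa5, which encodes BiP, at -0.49, Syvn1 at -0.65 and Calr at -0.42, and 0 of these 10 were called. A match is a string of letters and was not tested as a binding site.

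Apol9a, an apolipoprotein L gene that responds to interferon, fell in both genotypes and further in Mcl1KO. Signals of Apol9a in fed WT livers were 7.67, 7.55, 7.71, 7.74 and 7.53 and in fasted WT livers 6.80, 6.51, 6.62, 6.96 and 6.04 (log2). Fed Mcl1KO livers gave 7.95, 7.93, 7.89, 7.82 and 7.78 and fasted ones 5.96, 4.61, 5.73, 5.68 and 5.23. The fall was 2.08-fold in WT against 5.4-fold in Mcl1KO, an interaction of -1.38 (SE 0.26, limma adjusted p = 0.0317). Fed Mcl1KO livers were the highest group and fasted Mcl1KO livers the lowest, with no overlap. The call was kept in 8 of 20 fits. Apol9b is a near-identical copy whose transcripts may reach the same probes. It had an interaction of -1.04 (SE 0.26, adjusted p = 0.0962). The 25 measured interferon response genes included 0 calls. At an unadjusted p under 0.05 were 8 in the lower direction (5.08% of all probe sets), 6 to 9 with 1 array left out, and 1 in the higher. The median interaction was -0.19, and fasting lowered 10 in WT (3.68% of all probe sets) and 15 in Mcl1KO (6.25%). Ddx58, which encodes the RNA sensor RIG-I, had -0.86 (SE 0.22, adjusted p = 0.0974) and Stat2 -0.86 (SE 0.29, adjusted p = 0.233).

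The core of the interferon-stimulated response element was searched on both strands as GAAAC and GAAA with 1 base of any kind between them. It was in 225 of 32851 windows (0.685%). Counted by gene, it was found for 8 of the 18 interferon list genes that had a window, and for Apol9a among the called genes. The stretch from chr15:77411090-77411179 on the minus strand shows it in capitals, read from the opposite strand, 49 bases before the start.
Apol9a: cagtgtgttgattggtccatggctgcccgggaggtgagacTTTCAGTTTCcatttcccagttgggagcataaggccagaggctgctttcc
The interactions of the 8 list members with this core ran from -0.86 (Stat2) to 0.08 (Oas1a), and Ifit3, with changes of -1.44 in WT and -1.43 in Mcl1KO, had 0.02.

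Nlrp12, a NOD-like receptor gene, was the called member among 15 inflammasome and NLR genes. With food, WT livers read 2.09, 2.17, 2.11, 1.89 and 2.25 (log2) for Nlrp12 and Mcl1KO livers 2.25, 2.13, 1.92, 2.14 and 2.03. After the fast, WT livers read 3.37, 2.71, 2.42, 2.44 and 3.68 and Mcl1KO livers 4.66, 5.40, 4.15, 5.50 and 4.99. It rose 1.77-fold in WT (adjusted p = 0.0281) and 7.19-fold in Mcl1KO (adjusted p = 6.18e-09), an interaction of 2.02 (SE 0.32, limma adjusted p = 0.00842) that was called in 20 of 20 fits. Fed livers of both genotypes lay within 1.89 to 2.25, below the median of every array and near its floor, so these folds rest on a baseline with little signal, and fasted Mcl1KO livers lay above every other liver. Of the other 14 genes in the list, 0 had a higher and 3 a lower value at an unadjusted p under 0.05. Over all probe sets these shares were 6.07% and 5.08%.

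Kupffer cells are macrophages that line the sinusoids, and their markers had higher values of the interaction. Among 15, Vsig4, a complement receptor, and Fcna, the lectin ficolin A, were called. Vsig4 measured 6.20, 6.43, 6.05, 6.02 and 6.35 in fed WT livers and 5.46, 4.99, 5.23, 4.95 and 5.71 in fasted WT livers. It measured 6.16, 6.26, 6.20, 6.02 and 6.22 in fed and 5.98, 6.44, 6.33, 7.03 and 6.67 in fasted Mcl1KO livers (log2). Vsig4 fell 1.92-fold in WT (adjusted p = 0.000435), and its change in Mcl1KO was 0.32 (adjusted p = 0.23). The interaction was 1.26 (SE 0.23, limma adjusted p = 0.022), lost without fed WT replicate 5, fasted WT replicate 2 or fasted Mcl1KO replicate 5 (adjusted p = 0.0526, 0.0501 and 0.0551). Fcna ranged over 5.67 to 6.36 in fed WT, 4.94 to 5.51 in fasted WT, 5.59 to 5.97 in fed Mcl1KO and 5.57 to 6.58 in fasted Mcl1KO livers. Its interaction was 1.09 (SE 0.22, adjusted p = 0.0445), called in 3 of 20 fits. In both genes the fasted WT livers lay below the other 15.

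Of the 15 markers, 14 were above 0 and 7 had an unadjusted p under 0.05, all higher, against 6.07% of all probe sets. The 7 became 4 without fed WT replicate 2. The median interaction was 0.59, with changes of -0.59 in WT and -0.12 in Mcl1KO. In WT fasting lowered 6 and raised 0 (3.68% and 3.1% of all probe sets). In Mcl1KO it lowered 3 and raised 1 (6.25% and 8.2%). The summed linear signal of the 15, as a percentage of the fed WT mean, was 87.7 to 115 in fed WT, 60.3 to 73.3 in fasted WT, 90.0 to 119 in fed Mcl1KO and 69.6 to 117 in fasted Mcl1KO livers. In whole liver, fewer cells of a type and less RNA per cell cannot be told apart. Mrc1, a mannose receptor of macrophages and sinusoidal endothelium, was also called. Mrc1 ranged over 6.51 to 6.98 in fed WT, 5.85 to 6.62 in fasted WT, 6.21 to 6.48 in fed Mcl1KO and 6.56 to 7.08 in fasted Mcl1KO livers. Mrc1 fell 1.39-fold in WT and rose 1.44-fold in Mcl1KO (adjusted p = 0.0229 and 0.00574), an interaction of 1.0 (SE 0.18, adjusted p = 0.022), lost without fed WT replicate 5 or fasted WT replicate 2 (0.0526 and 0.0501).

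Sinusoidal endothelial markers had 0 calls. Of 14, 13 were above 0, and 6 had an unadjusted p under 0.05, all higher, against 6.07% of all probe sets. The count was 4 without fed WT replicate 5. The median was 0.55, with -0.36 in WT and 0.22 in Mcl1KO. Dnase1l3, a secreted nuclease, had 0.89 (SE 0.23, adjusted p = 0.098) and the adhesion molecule gene Pecam1 1.02 (SE 0.33, adjusted p = 0.207). Their summed signal was 91.2 to 111% of the fed WT mean in fed WT, 65.9 to 93.5% in fasted WT, 67.7 to 91.0% in fed Mcl1KO and 75.8 to 102% in fasted Mcl1KO livers, so fed Mcl1KO livers lay below every fed WT liver. Hepatocyte markers summed to 96.0 to 104% in all groups, with a median interaction of -0.04. Markers of infiltrating and damage-associated myeloid cells had 0 calls and a median of -0.01. Of these 14 markers, 8 to 12 lay below the array median, depending on the group. Over the alternatives their median ran from -0.05 to 1.31, and its sign turned in 17. Their sum was 83.3 to 118% and 73.2 to 102% in fed and fasted WT, and 96.5 to 199% and 114 to 183% in fed and fasted Mcl1KO livers. The stellate cell sum was 138 to 188% in fasted Mcl1KO and 81.0 to 128% in the other 15 livers. The 14 stellate cell markers were split, with 8 above and 6 below 0, 0 called and a median interaction of 0.05. The part of these markers in the calls was not tested.

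**Figure D4:**
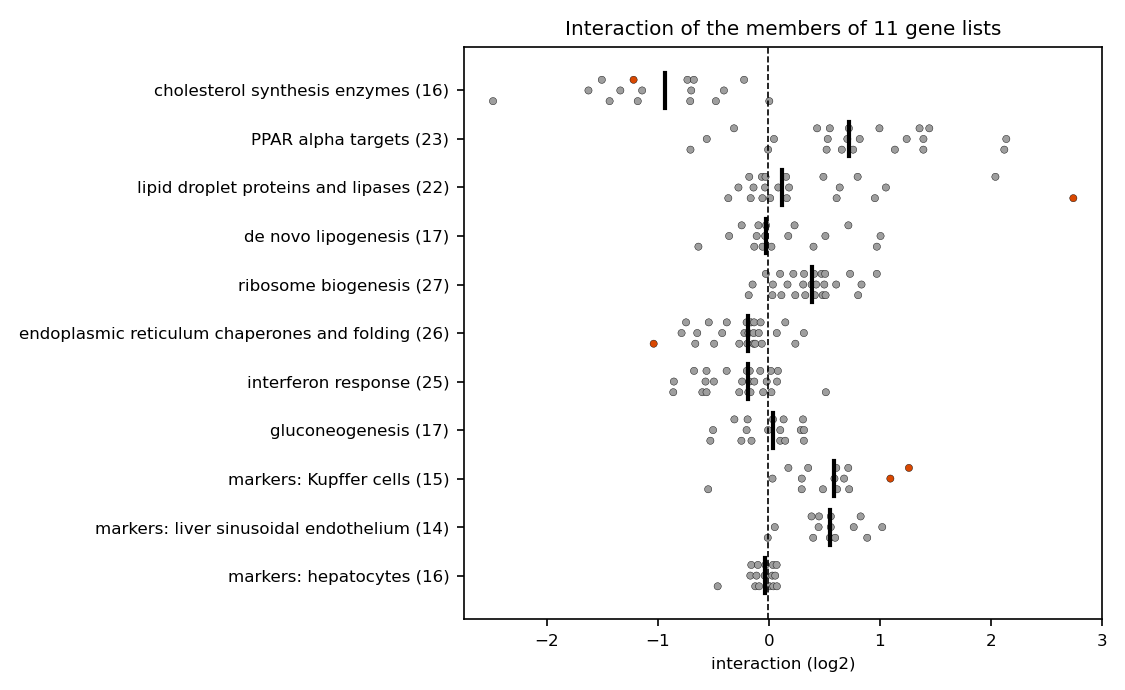
Interaction (log2, x axis) of each measured member of 11 gene lists (y axis, number measured in brackets). Points are genes, orange where called, black bars are list medians and the dashed line is the median over all probe sets, -0.01; points are staggered vertically for legibility. Medians lie at -0.94 for cholesterol synthesis, 0.72 for PPARα targets, 0.59 for Kupffer cell and 0.55 for sinusoidal markers, and at -0.03 for de novo lipogenesis.

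Among 33 Rab GTPases and TBC regulators, the switches of membrane traffic and the proteins that turn them off, Rab30, Rab31 and Tbc1d15 were called, all with a higher change in Mcl1KO (0.0811% of all probe sets). The log2 signals of Rab30 were 5.40, 6.91, 5.08, 5.48 and 5.52 in fed WT and 6.59, 6.49, 6.31, 5.68 and 6.43 in fasted WT livers. In Mcl1KO livers they were 4.28, 4.33, 4.78, 5.30 and 5.75 with food and 9.33, 9.60, 7.35, 7.84 and 8.62 without. Rab30 acts at the Golgi. In Mcl1KO it rose 12.7-fold (adjusted p = 2.36e-07), and its change in WT was 0.62 (adjusted p = 0.433). The interaction was 3.04 (SE 0.53, limma adjusted p = 0.022), called in 20 of 20 fits with 1 array left out. The fasted Mcl1KO livers lay above all others, with replicates 3 and 4 the lowest of them, and 1 fed WT liver lay above the fasted WT ones.

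Tbc1d15 ranged over 4.74 to 5.38 in fed WT, 5.08 to 5.78 in fasted WT, 4.95 to 5.33 in fed Mcl1KO and 6.05 to 6.62 in fasted Mcl1KO livers. Tbc1d15, which acts on Rab7 of late endosomes and mitochondria, rose 2.44-fold in Mcl1KO (adjusted p = 9.72e-07), and its change in WT was 0.14 (adjusted p = 0.718). Its interaction was 1.15 (SE 0.21, limma adjusted p = 0.022), lost without fasted WT replicate 2 or fasted Mcl1KO replicate 5 (0.0501 and 0.0523). Rab31 ranged over 5.01 to 5.37 in fed WT, 3.99 to 4.72 in fasted WT, 4.30 to 5.40 in fed Mcl1KO and 5.0 to 6.25 in fasted Mcl1KO livers. Rab31, of endosomes and the trans-Golgi, fell 1.73-fold in WT (adjusted p = 0.0146), and its change in Mcl1KO was 0.58 (adjusted p = 0.0512). Its interaction was 1.37 (SE 0.28, adjusted p = 0.0468), called in 4 of 20 fits. Another 3 members of the list had an unadjusted p under 0.05, all higher (6.07% of all probe sets). In the list 23 were above and 10 below 0, with a median of 0.09.

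Of 27 ribosome biogenesis genes 0 were called, 24 were above 0, and 9 had an unadjusted p under 0.05, all higher, against 6.07% of all probe sets. Without fasted Mcl1KO replicate 3 there were 15. Fasting raised 1 of the 27 in WT (3.1% of all probe sets) and 17 in Mcl1KO (8.2%), and the median interaction was 0.38. Nop58, a core protein of snoRNPs, had 0.97 (SE 0.25, adjusted p = 0.098) and Noc3l 0.83 (SE 0.24, adjusted p = 0.143). The called genes Ddx28, Wtap and Srrt, which act on RNA, belong to none of the lists. Ddx28 ranged over 4.39 to 4.59 in fed WT, 4.48 to 4.94 in fasted WT, 3.95 to 4.49 in fed Mcl1KO and 5.11 to 6.18 in fasted Mcl1KO livers. Ddx28, a mitochondrial RNA helicase needed for the mitochondrial ribosome, rose 2.67-fold in Mcl1KO (adjusted p = 8.22e-07). Its interaction was 1.09 (SE 0.22, adjusted p = 0.0468), called in 2 of 20 fits. Wtap, a subunit of the complex that writes N6-methyladenosine, rose 1.61-fold in Mcl1KO and had 0.83 (SE 0.16, adjusted p = 0.0382), called in 7 of 20 fits. Srrt, a cofactor of the nuclear cap-binding complex, fell 1.55-fold in Mcl1KO and had -0.82 (SE 0.16, adjusted p = 0.0382), called in 5 of 20 fits.

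Among nuclear genes of mitochondrial proteins, Timm17a was called. Timm17a ranged over 6.37 to 6.92 in fed WT, 6.16 to 6.70 in fasted WT, 6.89 to 7.11 in fed Mcl1KO and 7.33 to 7.74 in fasted Mcl1KO livers. Timm17a, a subunit of the translocase that imports proteins across the inner membrane, rose 1.45-fold in Mcl1KO (adjusted p = 0.00262), and its change in WT was -0.35 (adjusted p = 0.0911). The interaction was 0.88 (SE 0.17, adjusted p = 0.0317), called in 8 of 20 fits. Of 36 genes of respiratory complex I, 33 were above 0, 7 had an unadjusted p under 0.05 (all higher, against 6.07% of all probe sets) and 0 were called, with a median of 0.18. Complexes II to V had 36 of 39 above 0, 4 at that level, 0 called and a median of 0.15. The 4 became 1 without fasted Mcl1KO replicate 4 and 9 without replicate 3. The 10 genes of mitochondrial fusion and fission had 5 above and 5 below 0, 1 at that level (higher), 0 called and a median of 0.06. Of 15 mitochondrial proteases and chaperones 6 had an unadjusted p under 0.05, all higher, and 0 were called. Hspa9, the mitochondrial Hsp70, had 0.45 (SE 0.14, adjusted p = 0.198). Among 15 BCL2 family genes 0 were called; Bcl2l1, which encodes BCL-XL, had 0.97 (SE 0.32, adjusted p = 0.219) and Bcl2l11, which encodes BIM, 0.59 (SE 0.31, adjusted p = 0.483).

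Msrb3 and Ropn1l were called whichever array was left out. Signals of Msrb3 in fed WT livers were 5.53, 5.39, 5.47, 5.73 and 5.32 and in fasted WT livers 4.95, 5.03, 5.45, 5.06 and 5.38 (log2). Fed Mcl1KO livers gave 5.35, 5.11, 4.92, 5.25 and 4.99 and fasted ones 6.37, 6.39, 5.72, 5.91 and 5.90. Msrb3, a methionine sulfoxide reductase of the endoplasmic reticulum and mitochondria, rose 1.91-fold in Mcl1KO, and its change in WT was -0.31 (adjusted p = 0.229). Its interaction of 1.25 (SE 0.20, limma adjusted p = 0.00842) was called in 20 of 20 fits. Fasted Mcl1KO livers lay above all fasted WT and fed Mcl1KO livers and overlapped fed WT at 1 value. Ropn1l ranged over 4.15 to 4.54 in fed WT, 4.53 to 5.02 in fasted WT, 4.31 to 5.03 in fed Mcl1KO and 3.61 to 4.25 in fasted Mcl1KO livers. Ropn1l, known from the sperm flagellum, fell 1.8-fold in Mcl1KO and had an interaction of -1.29 (SE 0.21, adjusted p = 0.00842), called in 20 of 20 fits.

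Gys2 encodes the glycogen synthase of the liver. Gys2 ranged over 8.91 to 9.60 in fed WT, 8.15 to 8.64 in fasted WT, 8.35 to 8.86 in fed Mcl1KO and 8.77 to 9.03 in fasted Mcl1KO livers. It fell 1.66-fold in WT (adjusted p = 0.000625), and its change in Mcl1KO was 0.25 (adjusted p = 0.248). The interaction was 0.98 (SE 0.18, adjusted p = 0.028), called in 15 of 20 fits. Every fasted Mcl1KO liver lay above every fasted WT liver. Among 17 gluconeogenesis genes 0 were called, with a median interaction of 0.04 and fasting calls of 10 higher in WT and 8 in Mcl1KO (3.1% and 8.2% of all probe sets). Pck1, which encodes the rate-limiting carboxykinase, rose 1.57-fold in WT, and its change in Mcl1KO was 0.13 (adjusted p = 0.501). Its interaction was -0.53 (SE 0.14, adjusted p = 0.101). Gpt, an alanine aminotransferase gene, had -0.50 (SE 0.21, adjusted p = 0.338).

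Another 6 called genes had values of like size. Tor3a, a torsin ATPase of the endoplasmic reticulum, rose 1.75-fold in Mcl1KO and had an interaction of 1.07 (SE 0.20, adjusted p = 0.0289). Csnk1e, a casein kinase that acts on clock proteins, rose 1.9-fold in Mcl1KO and had 1.11 (SE 0.23, adjusted p = 0.0456), while 0 of 18 clock genes, a list without Csnk1e, were called. Hsbp1l1, related to a regulator of heat shock factors, rose 1.37-fold in Mcl1KO and had 0.77 (SE 0.15, adjusted p = 0.0382). Wwc1, a scaffold of the Hippo pathway, fell 1.61-fold in Mcl1KO and had -0.92 (SE 0.17, adjusted p = 0.028). Amhr2, the receptor gene for anti-Müllerian hormone, and Prrxl1, a homeobox gene of neurons, rose 1.53-fold and 1.48-fold in WT. Their interactions were -0.88 (SE 0.18, adjusted p = 0.0445) and -0.90 (SE 0.18, adjusted p = 0.037), and Amhr2 signals lay between 2.15 and 3.28 in all 20 livers. Hsbp1l1 signals lay between 2.36 and 3.31. Both ranges are below the median of every array, and folds there are less certain. Of these 6, Wwc1 was called in 14 of 20 fits, Tor3a in 10 of 20, Prrxl1 in 8 of 20, Amhr2 in 7 of 20, Hsbp1l1 in 5 of 20 and Csnk1e in 4 of 20. A probe set of the X chromosome by its ID, without a symbol, had -1.04 (SE 0.19, adjusted p = 0.022).

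In 3 called probe sets, 2 of them outside the naming rule and described after their values were seen, fasted WT livers stood apart from all others and fed WT replicate 1 went with them. With food, WT livers read 6.0, 9.65, 9.62, 9.65 and 9.74 (log2) for Gm4788 and Mcl1KO livers 9.51, 9.67, 9.48, 9.61 and 9.45. After the fast, WT livers read 4.0, 2.99, 3.63, 4.11 and 4.78 and Mcl1KO livers 9.05, 8.33, 9.33, 9.10 and 8.83. The interaction of Gm4788, a predicted gene on chromosome 1, was 4.41 (SE 0.68, limma adjusted p = 0.00842). Ctse measured 6.54, 2.70, 3.18, 2.85 and 3.25 in fed WT livers and 7.90, 7.12, 7.55, 6.93 and 7.45 in fasted WT livers. It measured 2.76, 2.33, 3.16, 2.91 and 2.30 in fed and 3.02, 3.33, 2.81, 2.80 and 3.47 in fasted Mcl1KO livers (log2). Ctse, an aspartic protease of endosomes and also on chromosome 1, had -3.29 (SE 0.65, limma adjusted p = 0.0382), called in 5 of 20 fits. Among the fed WT livers, replicate 1 gave 6.0 and 6.54 in these, far from its 4 group members and towards the fasted WT livers.

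The remaining probe set belongs to the mitochondrial chromosome by its ID and has no symbol. It read 10.55, 11.66, 11.67, 11.71 and 11.68 in fed WT and 9.27, 9.47, 9.15, 9.43 and 9.65 in fasted WT livers. In Mcl1KO livers it read 11.53 to 11.70 with food and 11.37 to 11.63 without. Its interaction was 1.97 (SE 0.23, adjusted p = 0.000329), while the other 8 mitochondrial probe sets had interactions of -0.01 to 0.10. Without fed WT replicate 1 the 3 interactions were 5.15 for Gm4788, -4.00 for Ctse and 2.20 for the mitochondrial probe set (adjusted p = 2.82e-09, 9.2e-09 and 3.15e-09). In all, 16 probe sets put the 5 fasted WT livers and fed WT replicate 1 on 1 side and the other 14 livers on the other. With another fed WT liver in its place the number was 3 to 11. By probe set ID 5 of the 16 lie on chromosome 1 (31.2%, against 5.4% of all probe sets). They are Ctse, Gm4788, Timm17a, 1 without a symbol, and Glrx2, named after its values were seen. Glrx2, a mitochondrial glutaredoxin gene, read 8.20 in fed WT replicate 1 and 8.14 to 8.38 in fasted WT livers, against 7.52 to 7.98 in the other 14, and had an interaction of -0.30 (SE 0.16, adjusted p = 0.502). In these 3 called probe sets the interaction rested on fasted WT livers that differ from all Mcl1KO livers and from 4 of 5 fed WT livers. Since 1 fed WT liver went with them and the strain of the mice is not given, an effect of the fast and a difference between the mice themselves cannot be told apart here.

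**Figure D5:**
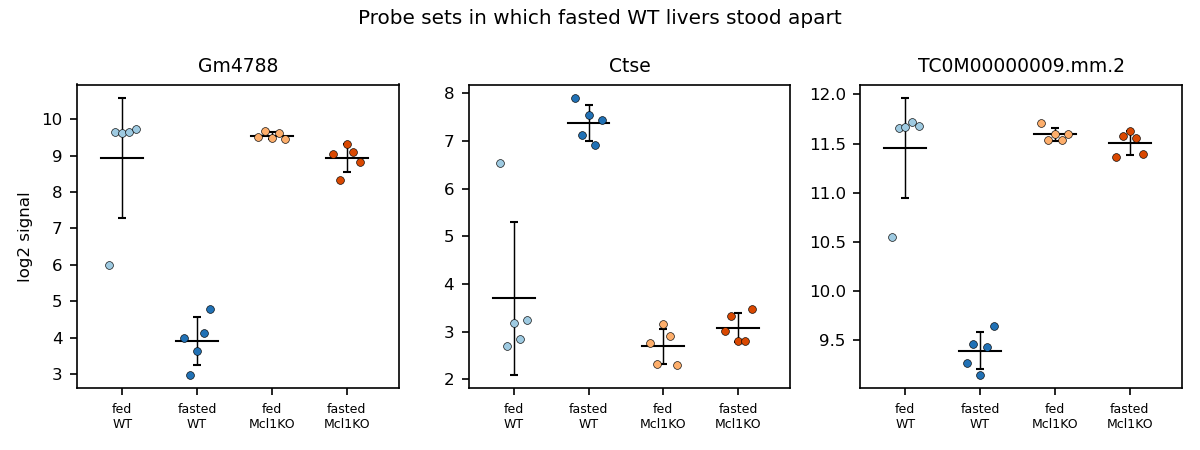
Log2 signal of each liver for Gm4788, Ctse and the mitochondrial probe set TC0M00000009.mm.2, by group; points are single mice in the order of their replicate numbers, bars the mean and whiskers 1 SD (n = 5). The y axes differ and do not start at 0. Fasted WT livers lie apart, and the leftmost fed WT point, replicate 1, lies towards them at 6.0, 6.54 and 10.5.

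Some genes that missed the threshold with all arrays, chosen after their values were seen, were split within the fasted Mcl1KO group or passed without replicate 3. Lepr, the leptin receptor gene, read 7.93, 9.19, 4.69, 4.33 and 8.68 in fasted Mcl1KO replicates 1 to 5 and 2.54 to 4.32 in the other 15 livers. Its interaction was 3.93 (SE 0.93, adjusted p = 0.0828), and 4.50 without replicate 3 (adjusted p = 0.00892). Sesn1, a sestrin gene activated by p53, read 7.76, 7.90, 5.59, 5.74 and 8.68 in fasted Mcl1KO livers and 5.16 to 5.68 in the rest, with 1.64 (SE 0.54, adjusted p = 0.22). In both, replicates 3 and 4 sat near the other groups. Socs2, an inhibitor of growth hormone signalling, had 2.59 (SE 0.67, adjusted p = 0.1), and 2.84 without replicate 3 (adjusted p = 0.0318). Among clock genes, Dbp had -1.66 (SE 0.49, adjusted p = 0.16) and Per3 -1.42 (SE 0.37, adjusted p = 0.1), and -2.10 and -1.74 without replicate 3 (adjusted p = 0.00325 and 0.00218). Saa4, of the serum amyloid A family, had -1.87 (SE 0.43, adjusted p = 0.078), and -2.19 without it (adjusted p = 0.00325). Without replicate 3, 1.49% of all probe sets were called. That array was picked by its nearness to WT, so a gene that passed only without it gains no support.

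Several gene groups of the fasted liver gave medians near 0, which does not show that no member differed. At an unadjusted p under 0.05, 6.07% of all probe sets were higher and 5.08% lower. The 21 genes of the urea cycle and amino acid catabolism had a median interaction of -0.07, with 1 higher and 1 lower at an unadjusted p under 0.05 and fasting calls of 9 higher in each genotype (3.1% and 8.2% of all probe sets). The 14 glucocorticoid targets had 0.03, with 6 called higher on fasting in WT and 9 in Mcl1KO. The 23 genes of the integrated stress response had 0.07, with 5 higher and 1 lower at that level. The 19 p53 targets had -0.05, with 1 in each direction. The 14 lymphocyte markers had -0.04 and 0 in either direction, but 13 or 14 of them lay below the array median in each group, where differences are hard to see. The median standard error of an interaction was 0.19, against 0.13 for a fasting change in 1 genotype. The smallest interaction called was -0.75, that of Alg12.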

How the data were processed

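Liver RNA of 20 mice, 5 in each of 4 groups, was measured on 1 Affymetrix array per mouse. The authors deposited 1 table of log2 signals for 22206 probe sets, made with RMA (robust multi-array average) and Partek 7.0, per the submitters' processing notes. Its log base is not stated; values of 1.34 to 12.56 were read as log2. RMA forces the arrays to 1 distribution, which hides any general shift, and compresses the folds of dim probe sets. No array pair was identical. Of the probe sets, 19572 carried 1 symbol in the platform annotation, 0 several and 2634 none. Symbols were matched to a RefSeq table of GRCm38.p6, used for names and chromosomes.

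Limma 3.58.1 in R 4.3.3 fitted the means of the 4 groups to all 20 arrays (lmFit and eBayes, 16 residual and 6.95 prior degrees of freedom). Contrasts were adjusted by Benjamini-Hochberg over all probe sets and called under 0.05. Standard errors (SE) come from this model. P-values measure the spread between the mice of a group. The steps were tested on simulated data. Figures used matplotlib 3.10.9 in Python 3.11.15.

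Named were all called probe sets with a symbol other than predicted models, up to 3 called members per direction of each of 41 gene lists, or the 2 largest interactions where none was called, and Mcl1. The probe set with the highest mean stood for a gene. The lists held 797 symbols, of which 740 were measured, 2 of them through an older symbol. The question, the lists and the tests were chosen with earlier results of these data known. Alternatives were 2 scalings, 2 moderations, 2 array weightings, unequal spreads, robust regression, a filter at a mean log2 signal of 4, a replicate block, and leaving out each array or fasted Mcl1KO replicates 3 and 4. No pairing of the mice across groups by replicate number was seen.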

Additional observations from a re-analysis of the deposited data

Results flagged for a closer look

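In 13 of 124 groups of 5 tested among the called probe sets and Mcl1, 1 liver lay far from the other 4 by Dixon's criterion (a gap to the nearest over the range above 0.71). Chance flags about 1 in 20 groups. All values are log2 signals. Fed WT replicate 1 was the liver in 4 of them. It read 10.55 against 11.66 to 11.71 in the other 4 for the probe set TC0M00000009.mm.2, 6.0 against 9.62 to 9.74 for Gm4788, 6.54 against 2.70 to 3.25 for Ctse and 3.02 against 2.83 to 2.87 for Hsbp1l1. Fed WT replicate 2 read 6.91 against 5.08 to 5.52 for Rab30 and 3.47 against 2.75 to 2.93 for Cidec. Fed Mcl1KO replicate 5 read 6.48 against 6.21 to 6.27 for Mrc1 and 3.97 against 3.45 to 3.50 for Prrxl1. Fasted WT replicate 5 read 6.28 against 6.97 to 7.12 for Hsd3b2 and 5.78 against 5.08 to 5.21 for Tbc1d15. Fasted WT replicate 2 read 3.74 against 4.19 to 4.37 for Csnk1e, fasted Mcl1KO replicate 2 6.25 against 5.0 to 5.36 for Rab31 and fed Mcl1KO replicate 3 3.95 against 4.34 to 4.49 for Ddx28.

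The fasted minus fed differences of the genotypes differed, by limma's test of the interaction, in 30 probe sets. For Gm4788, Ctse and TC0M00000009.mm.2 an effect of the fast and a difference between the mice themselves cannot be told apart. The interactions above 0 (log2) were 4.41 for Gm4788, 3.04 for Rab30, 2.74 for Cidec, 2.02 for Nlrp12, 1.97 for TC0M00000009.mm.2, 1.37 for Rab31, 1.26 for Vsig4, 1.25 for Msrb3 and 1.15 for Tbc1d15. The others above 0 were 1.11 for Csnk1e, 1.09 for Fcna, 1.09 for Ddx28, 1.07 for Tor3a, 1.0 for Mrc1, 0.98 for Gys2, 0.88 for Timm17a, 0.83 for Wtap and 0.77 for Hsbp1l1. Those below 0 were -3.29 for Ctse, -2.77 for Hsd3b2, -1.38 for Apol9a, -1.29 for Ropn1l, -1.22 for Fdft1, -1.04 for TC0X00000979.mm.2, -1.04 for Hyou1, -0.92 for Wwc1, -0.90 for Prrxl1, -0.88 for Amhr2, -0.82 for Srrt and -0.75 for Alg12.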

How the results depend on the processing

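No interaction of a called probe set changed sign in the fits run for it, 20 with 1 array left out and 11 others, or 10 for Nlrp12, Tor3a, Prrxl1, Hsbp1l1 and Amhr2, which the signal filter removed. The calls moved. Interaction calls, 30 with all arrays, ranged from 9 to 331 with 1 array left out; 8 probe sets were called each time and 15 in at least 15 of 20. They were 3 in the ordinary linear model, 55 with array weights per array, 0 with unequal spreads, 880 with robust regression, 54 among the 9215 probe sets of mean log2 signal 4 or more, and 765 without fasted Mcl1KO replicates 3 and 4. Robust regression gives arrays that stand apart less weight, and whether its errors are too small with 5 arrays a group was not tested. With quantile normalisation the calls were 35, centred 38, with trend and robust moderation 44 and with weights per group 42.

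Fasting calls in WT were 1124 to 1580 with 1 array left out, 724 with unequal spreads and 2601 with robust regression. Fasting calls in Mcl1KO were 2689 to 3418, and 1271 with unequal spreads. Genotype calls in fed mice, 8 in the main fit, were 7 to 16, and in the same settings 15 with trend and robust moderation, 4 in the ordinary model, 20 and 26 with weights per group and per array, 1 with unequal spreads, 201 with robust regression, 5 with the filter and 18 without replicates 3 and 4. Genotype calls in fasted mice, 1109 in the main fit, were 497 to 1707, 700 in the ordinary model, 7 with unequal spreads, 2486 with robust regression and 1989 without replicates 3 and 4. Their share in the higher direction was 66.5%, 55% after quantile normalisation and 76.4% centred. The causes of these shifts were not tested.

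The labels number the mice 1 to 5 in every group. Deviations of same-numbered mice from their group means correlated at -0.19 to 0.17 (mean -0.02, against 0.01 for other pairs). No pairing by number was seen, though these correlations cannot exclude one. With the replicate block there were 20 interaction calls, 11 higher and 9 lower, 17 of them among the 30. Medians of the cholesterol synthesis list ran from -1.10 to -0.78 over all alternatives, those of PPARα targets from 0.46 to 0.82 and of Kupffer cell markers from 0.44 to 0.66. Those of ribosome biogenesis ran from 0.27 to 0.44. The number of arrays and the spread of the fasted Mcl1KO group limit the precision.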

Other observations

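Other gene groups of the liver had few or no called members in the interaction. At an unadjusted p under 0.05, 6.07% of all probe sets were higher and 5.08% lower. All but 2 of 17 xenobiotic cytochromes were below 0, with a median of -0.21, 0 called, and 2 higher and 3 lower at an unadjusted p under 0.05. Cyp1a2 had -1.04 (SE 0.35, limma adjusted p = 0.235), with changes of -3.10 in WT and -4.14 in Mcl1KO, and Cyp2c38 0.82 (SE 0.36, adjusted p = 0.383). Of 25 cell cycle and DNA replication genes 20 were below 0, with a median of -0.24, 0 called and 2 at an unadjusted p under 0.05, both lower. That median was 0.02 among probe sets of mean log2 signal 4 or more. Of 22 acute phase proteins 16 were below 0 and 4 had an unadjusted p under 0.05, all lower, and Saa2, a serum amyloid A gene, had -1.96 (SE 0.59, adjusted p = 0.167). The 20 genes of bile acid synthesis and transport had a median of -0.12 and 0 called. The 26 genes of autophagy and lysosomes had 0.09, with Ctse the 1 called and 6 higher and 2 lower at an unadjusted p under 0.05.

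Genes called without fasted Mcl1KO replicate 3 and not with all arrays numbered 268 with a symbol other than a predicted model. Tubb2a, a tubulin gene chosen after its values were seen, read 7.72, 8.54, 6.04, 8.77 and 7.33 in fasted Mcl1KO livers and 4.58 to 5.84 in the other 15. Its interaction was 2.25 (SE 0.48, adjusted p = 0.0543) with all arrays and 2.66 (adjusted p = 0.000842) without replicate 3, the array picked by its nearness to WT.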
